A study of Mus musculus with 4 samples.

Results

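The interleukin 17 and 22 axis was followed through 9 genes in single cells of the mouse middle colon. They were taken by symbol from the 55450 genes of the deposited matrices, and all 9 had at least 1 unique molecular identifier (UMI, a tag that counts 1 captured RNA molecule) in each library. The cytokine genes are Il17a, Il17f and Il22. Il23a and Il23r encode a subunit of the inducing cytokine interleukin 23 and its receptor on lymphocytes. Il22ra1, Il17ra and Il17rc encode receptor chains on receiving cells, and Il22ra2 encodes a soluble protein that binds interleukin 22. Control mice drank clean water, and the DSS mice drank 3% dextran sulfate sodium, an agent that damages the gut lining and is used to model colitis, for 2 days. All mice were 7 weeks old and free of specified pathogens, and their strain, sex and number per library are not given in the labels. Each group had 2 libraries, numbered as in the labels. Since separate animals are not stated, p-values reflect how these libraries vary, a variation that may be technical.

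In the gut, myeloid cells that sense microbes release interleukin 23 and interleukin 1, and lymphocytes that carry the interleukin 23 receptor answer with interleukin 17A, 17F and 22. Interleukin 22 acts on epithelium through a receptor of the Il22ra1 and Il10rb products and the factor Stat3, and it is known for inducing antimicrobial lectins and barrier repair. Interleukin 17A and 17F act through a receptor of the Il17ra and Il17rc products on epithelial and stromal cells, and they are known for inducing chemokines that draw neutrophils.

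Total depth was 101051573 and 101834659 UMIs in the control libraries and 108941875 and 109472082 in the DSS libraries, and 42448 of 49851 barcodes were kept. Cell classes were named from marker genes, with the 9 genes, their partners and targets kept out of the clustering, and a name stands for cells like that type. The libraries differed in makeup within a group. T cells and innate lymphoid cells, 1 class here, made up 3.74% and 7.73% of kept control cells and 14.5% and 11.8% of DSS cells. Colonocytes made up 22.9% and 43.4% of control cells and 6.58% and 22.1% of DSS cells. Conventional Cd4 T cells came mostly from DSS 1 (199 of 245), and the unnamed lymphoid cluster 8 almost wholly from DSS 2. In control 2, 381 of the 792 T cells and innate lymphoid cells lay in the unnamed lymphoid cluster 4, at a median of 1024 UMIs. It was led by Spink4 and Agr2, which served here as goblet cell markers. In DSS 2, 358 of the 1371 lay in the unnamed lymphoid cluster 5. Values of the whole class include these cells. Summed markers of immune cells, 16 genes, lay in epithelial progenitors at 504 and 2259 CPM, that is UMIs scaled to the same total of the class in each library, in the control libraries and at 8944 and 1617 CPM in the DSS libraries. DSS 1 was the highest library for this sum in the progenitors, goblet cells, colonocytes and fibroblasts. Any 2 libraries shared 36 to 52 cell barcodes.

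The lymphoid source of Il22 was largely 1 small group of cells. Group 3 innate lymphoid cells, lymphocytes without an antigen receptor that are known as an early source of interleukin 22, held 79.3% of all Il22 UMIs in 172 of 42448 kept cells. This subset carried markers that include Lta, Il1r1, Ccr6, Cxcr5, Nrp1, Tmem176a and Tmem176b. Of its cells 0.581% had a UMI of Cd3e, a subunit of the T cell receptor complex. Trbc2, a constant segment of the receptor's β chain, had a UMI in 30.8% of them and Cd4 in 25%. Epithelial Epcam had a UMI in 18.6% of them, at a median depth of 2838 UMIs per cell.

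Il22 lies on GRCm38 at chr10:118204942-118210047 on the plus strand, and a near-identical copy, Iltifb, lies on the same chromosome. Iltifb had 0, 1, 5 and 1 UMIs in control 1 and 2 and DSS 1 and 2, and how reads common to both genes were counted is not given in the sources used here. In the group 3 subset, Il22 had 28, 111, 933 and 180 UMIs in control 1 and 2 and DSS 1 and 2, over 10, 39, 80 and 43 cells. Scaled to the UMIs of the subset, these were 1216, 1640, 2931 and 1691 CPM. DSS 1 stood above the other libraries, and DSS 2 lay close to control 2.

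The mean Il22 level of the group 3 subset was 1428 ± 300.1 CPM in control and 2311 ± 877 CPM in DSS (SD, n = 2). Its log2 fold change of DSS over control was 0.76 (SE 0.59, adjusted p = 1.0 by the edgeR quasi-likelihood test with Benjamini-Hochberg adjustment), so it did not pass the test. This subset was tested after the data had been seen, since control 1 held 10 of its cells. After each cell was thinned to 1000 UMIs, 13 of 39 control cells (33.3%, exact 95% interval 19.1 to 50.2) and 60 of 117 DSS cells (51.3%, 41.9 to 60.6) had an Il22 UMI. Unthinned, the shares were 34.7% and 58.5%. By library the thinned shares were 40% and 31.0% for control and 58.2% and 36.8% for DSS, so the groups overlapped. The thinned share in colonocytes, which should lack the gene, was 0.0309% in control and 0.0605% in DSS. Intervals cover counting error only.

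Il22 was also carried by other lymphocytes, mostly in DSS 1. Conventional Cd4 T cells held 2, 0, 97 and 1 Il22 UMIs in control 1 and 2 and DSS 1 and 2. γδ T cells, which carry the γδ form of the T cell receptor, held 0, 0, 42 and 1. Group 1 innate lymphoid or natural killer cells held 0, 0, 41 and 11. In both of the last subsets the control libraries were at 0, over 8 and 31 γδ T cells and 26 and 72 group 1 cells. Few cells held these UMIs in DSS 1: 8 Cd4 T cells, 6 γδ T cells and 5 group 1 cells. The highest single cells there held 48, 16 and 26 UMIs. In DSS 2, 1 group 1 cell held all 11.

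In DSS 1, 24 Il22 UMIs also lay in plasma cells, 19 in fibroblasts and 11 in smooth muscle, which are not known as sources of this cytokine. The part of free RNA or of joined cells in these was not tested. In the whole class of T cells and innate lymphoid cells, Il22 stood at 32.3, 81.2, 169.9 and 50.8 CPM in control 1 and 2 and DSS 1 and 2. DSS 2 was below control 2, and the log2 fold change was 1.09 (SE 0.62, edgeR adjusted p = 1.0). Without DSS 1 it turned to -0.16.

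**Figure D1:**
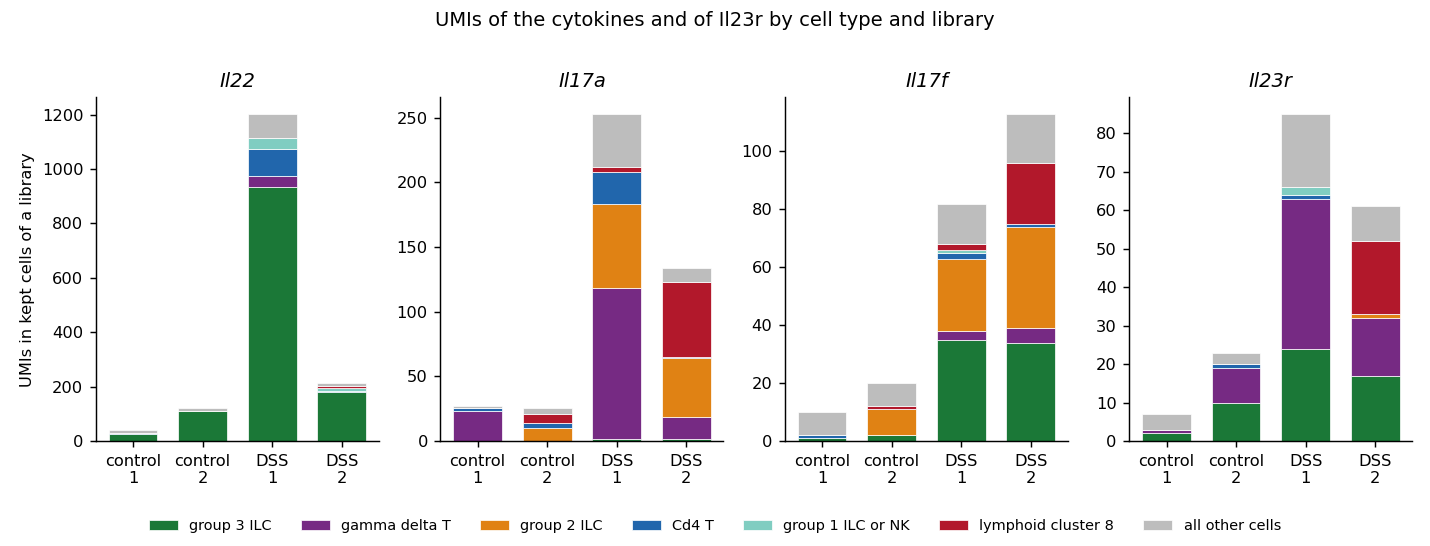
UMIs of Il22, Il17a, Il17f and Il23r in each library (y axis, number of UMIs), stacked by the cells that held them. Il22 was held mainly by the group 3 innate lymphoid cells in each library, with 933 of 1203 UMIs in DSS 1, while the makeup of Il17a changed from library to library.

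The cytokine genes Il17a and Il17f are neighbours on chromosome 1 with 42650 bases between them, and their cells differed. The bases before the start sites of both genes and of Il23r in RefSeq are printed side by side. Capitals mark matches, on either strand, to AGGTCA, a half-site that many nuclear receptors bind. The sequences are those of RefSeq on GRCm38.p6, each taken from the 250 bases before the RefSeq start, without annotated exons, and run 5′ to 3′ on the strand of the gene.
Il17a, chr1:20730655-20730904, plus strand: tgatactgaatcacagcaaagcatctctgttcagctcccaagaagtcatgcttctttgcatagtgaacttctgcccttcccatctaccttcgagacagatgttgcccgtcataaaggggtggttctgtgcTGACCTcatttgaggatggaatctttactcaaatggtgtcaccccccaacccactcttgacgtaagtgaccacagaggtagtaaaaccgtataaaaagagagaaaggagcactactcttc
Il17f, chr1:20784271-20784494, minus strand: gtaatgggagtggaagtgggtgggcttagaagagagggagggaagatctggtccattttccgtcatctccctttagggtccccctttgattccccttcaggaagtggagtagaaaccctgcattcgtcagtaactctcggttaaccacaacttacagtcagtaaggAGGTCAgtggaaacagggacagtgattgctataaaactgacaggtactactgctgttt
Il23r, chr6:67491856-67492105, minus strand: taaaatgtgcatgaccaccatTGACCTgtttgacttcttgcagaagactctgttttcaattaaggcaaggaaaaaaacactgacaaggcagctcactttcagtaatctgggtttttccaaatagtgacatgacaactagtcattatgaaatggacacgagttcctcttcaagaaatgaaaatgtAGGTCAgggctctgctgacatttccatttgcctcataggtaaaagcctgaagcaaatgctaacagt
The RefSeq start of Il17f is also that of a GENCODE transcript, and the GENCODE span of the gene reaches further upstream, to 20790617. The match began 120 bases before the start in Il17a, on the opposite strand, and 58 bases before it in Il17f, on the gene's strand. Il23r had matches at 229 bases, on the opposite strand, and at 66 bases, on its own. Of 32851 promoters, 14.0% held this motif in the 250 bases before the start. The 228 bases taken before Il22, which end 23 bases before its RefSeq start, held no match to it. Of the 9 genes, 6 had a promoter entry, and Il23a, Il22ra2 and Il17ra had none.

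Il17a (ENSMUSG00000025929, chr1:20730905-20734496) had 27, 26, 253 and 134 UMIs in the kept cells of control 1 and 2 and DSS 1 and 2. They lay in 5, 11, 43 and 49 cells. In these raw counts both DSS libraries were above both controls, in UMIs and in cells. The class of T cells and innate lymphoid cells held 92.7% of the UMIs. It numbered 338, 792, 1673 and 1371 cells in control 1 and 2 and DSS 1 and 2. Scaled to the UMIs of this class, Il17a stood at 26.2, 15.5, 35.5 and 31.4 CPM. Its log2 fold change there was 0.76 (SE 0.41), and edgeR did not call it. A few cells carried many of the UMIs: 1 γδ T cell held 15 of the 27 UMIs of control 1, and 1 γδ T cell held 48 of the 253 of DSS 1.

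γδ T cells held 35.5% of all Il17a UMIs, with 23, 0, 116 and 17 in the 8, 31, 96 and 58 cells of control 1 and 2 and DSS 1 and 2. Trdc, the constant segment of the δ chain, had a UMI in 75.1% of these cells. At 1000 UMIs per cell, Il17a was seen in 2 of 30 control cells (6.67%, 0.818 to 22.1) and in 15 of 145 DSS cells (10.3%, 5.91 to 16.5). No Il17a UMI was left in the thinned colonocytes of either group (0 of 6473 and 0 of 3304). The intervals of the γδ T cells overlapped widely, and their log2 fold change of Il17a was -0.70 (SE 1.30, edgeR adjusted p = 1.0; tested after the data had been seen).

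The second holder of Il17a was the group 2 innate lymphoid subset, cells known for type 2 cytokines rather than for interleukin 17. It held 27.3% of the Il17a UMIs, with 0, 10, 65 and 45 UMIs in 0, 4, 11 and 12 cells of control 1 and 2 and DSS 1 and 2. The subset carried its defining markers: Gata3, the transcription factor of type 2 lymphocytes, had a UMI in 72.1% of its 455 cells and Il1rl1, the receptor of interleukin 33, in 59.3%. Of the 27 cells with Il17a, 24 had a UMI of Gata3, 12 of Il1rl1 and 2 of Cd3e.

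On the CPM scale, Il17a in this subset stood at 28 ± 39.6 CPM in control and 143.5 ± 5.01 CPM in DSS (SD, n = 2). Both DSS libraries were above both controls. The log2 fold change was 2.06 (SE 0.63, unadjusted p = 0.0056, edgeR adjusted p = 1.0), and across 13 fits of the other classes and subsets 0.00182% of gene tests were called. With the replicate number as a block the adjusted p was 0.0281, and without control 2 the edgeR log2 fold change was 8.33 (adjusted p = 0.0275), a value fitted against a control library with 0 UMIs. Thinned to 1000 UMIs, the share of cells with an Il17a UMI was 3.16% (0.656 to 8.95) in control and 3.59% (1.81 to 6.34) in DSS.

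The unnamed lymphoid cluster 8 held 0, 7, 4 and 58 Il17a UMIs in control 1 and 2 and DSS 1 and 2, which was 43.3% of the Il17a UMIs of DSS 2. Of its 233 cells, 62.7% had a UMI of Cd3e and 38.2% of Cd4. Conventional Cd4 T cells held 3, 4, 25 and 1 Il17a UMIs, and 1 regulatory T cell of DSS 1 held 17. Group 3 innate lymphoid cells held 0, 0, 2 and 2. Il17a and Il22 thus lay largely in different subsets. Of 4174 lymphoid cells, 88 had Il17a, 127 had Il22 and 11 had both. Whether 11 is more or fewer than unrelated genes would share was not tested.

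Il17f (chr1:20777146-20790617, minus strand) had 10, 20, 82 and 113 UMIs in control 1 and 2 and DSS 1 and 2, and 80.4% of them lay in the class of T cells and innate lymphoid cells. Group 3 innate lymphoid cells held 1, 2, 35 and 34, at 43, 30, 110 and 320 CPM. Group 2 innate lymphoid cells held 0, 9, 25 and 35. In both subsets the DSS libraries were above the controls.

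The mean Il17f level of the group 3 subset was 36.5 ± 9.81 CPM in control and 215 ± 148 CPM in DSS. It did not pass the filter on low counts there and has no test. In the group 2 subset its log2 fold change was 1.37 (SE 0.70, unadjusted p = 0.0711, edgeR adjusted p = 1.0). In the whole lymphoid class, Il17f had a log2 fold change of 1.48 (SE 0.62, unadjusted p = 0.0427, edgeR adjusted p = 1.0). Il17f was seen beside Il22 in 20 group 3 innate lymphoid cells, of 24 with Il17f and 89 with Il22. It was seen beside Il17a in 12 group 2 innate lymphoid cells, of 16 with Il17f and 27 with Il17a. These counts come from the same libraries as the levels and carry no test.

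Il23r (chr6:67422932-67491855, minus strand), which encodes the chain that is specific to the interleukin 23 receptor, had 7, 23, 85 and 61 UMIs in control 1 and 2 and DSS 1 and 2. γδ T cells held 36.4% and group 3 innate lymphoid cells 30.1% of them. In γδ T cells Il23r stood at 50, 166, 124 and 116 CPM in control 1 and 2 and DSS 1 and 2, and in the group 3 subset at 87, 148, 75 and 160 CPM. Control and DSS overlapped in both.

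The edgeR log2 fold changes of Il23r were 0.02 (SE 0.65) in γδ T cells, -0.19 (SE 0.62) in the group 3 subset and 0.23 (SE 0.43) in the whole class (adjusted p = 1.0 each). Of 129 lymphoid cells with Il23r, 31 also had Il22, 15 had Il17a and 13 had Il17f. In DSS 2, 19 of 61 Il23r UMIs lay in the unnamed cluster 8.

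The programme of type 17 lymphocytes, 18 genes such as Ahr, Maf and Ccr6, was tested in the lymphoid class. Of the 18, 15 were higher in DSS and 3 lower, with a median log2 fold change of 0.38, beside -0.01 over all genes tested there. None was called, and edgeR called 0 of the 11570 genes tested in this class, beside 156 at an unadjusted p under 0.05 and 6 called by DESeq2. Of its most abundant genes, Il7r, the interleukin 7 receptor, lay at 463, 686, 607 and 559 CPM in control 1 and 2 and DSS 1 and 2. Rora, a nuclear receptor of lymphocytes, lay at 127, 876, 352 and 943 CPM. Ltb, a subunit of lymphotoxin, lay at 540 and 262 CPM in control and 601 and 221 CPM in DSS. All 3 overlapped between the groups.

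Il23a (chr10:128296139-128298752, minus strand) encodes the subunit that sets interleukin 23 apart from interleukin 12. It had 22, 29, 73 and 38 UMIs in the kept cells of control 1 and 2 and DSS 1 and 2, spread over many classes. Myeloid cells held 27.2% of them, plasma cells 16.7%, epithelial progenitors 13.6% and colonocytes 12.3%. Both DSS libraries were above both controls in UMIs. They were not in cells with a UMI, which numbered 19, 29, 65 and 28, so DSS 2 was just below control 2.

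In myeloid cells, Il23a had 2, 0, 23 and 19 UMIs in 263, 509, 1621 and 701 cells, or 1.6, 0, 2.0 and 5.3 CPM. Monocytes of DSS 2 held 16 of its 19, and 1 cell held 6 of them. Monocytes numbered 7, 7, 306 and 191 in control 1 and 2 and DSS 1 and 2, too few in control to show absence. Tissue macrophages held 0, 0, 11 and 2 Il23a UMIs, over 166, 34, 606 and 114 cells. In plasma cells, 24 of 27 Il23a UMIs came from DSS 1. The gene passed the filter in all kept cells together and in no single class, and its log2 fold change there was 0.93 (SE 0.65, edgeR adjusted p = 0.699).

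Of the 13 inducers fixed for myeloid cells, 10 were tested there, 8 were higher in DSS and none was called. In this class edgeR called 0 genes, 261 had an unadjusted p under 0.05, and DESeq2 called 17. The median log2 fold change was 0.38, beside -0.01 over all genes tested. Il1b, interleukin 1β, stood at 1373, 1817, 1694 and 2451 CPM in control 1 and 2 and DSS 1 and 2. Tgfb1, which in mouse guides T cells towards interleukin 17, stood at 177, 292, 295 and 391 CPM, and Ptgs2, the enzyme that starts prostaglandin synthesis, at 57.3, 239, 172 and 370. For all 3, DSS and control overlapped or nearly touched, and the edgeR adjusted p was 1.0. Summed epithelial markers in the same myeloid cells lay at 1799, 9965, 948 and 4861 CPM, highest in control 2, and their part in these values was not tested.

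Il22ra2 (chr10:19621998-19634681), the decoy receptor, was a myeloid gene here. Of its 6, 63, 213 and 23 UMIs in control 1 and 2 and DSS 1 and 2, myeloid cells held 82.6% over all libraries. Mature migratory dendritic cells, the form that carries antigen to lymph nodes and is a known source of this protein, held 0, 10, 107 and 8, in 3, 37, 98 and 89 cells. That was 0, 67.7, 136.8 and 15.6 CPM, and the groups overlapped.

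Single cells weighed heavily on Il22ra2. In control 2, 1 tissue macrophage held 42 of 63 UMIs, and in DSS 1, 1 mature migratory dendritic cell held 40 of 213. Tissue macrophages held 0, 42, 37 and 1 Il22ra2 UMIs, did not pass the filter, and gave an edgeR log2 fold change from -5.75 to -3.69 when control 1, DSS 1 or DSS 2 was left out. Conventional dendritic cells of type 1 held 2, 0, 36 and 0 UMIs in control 1 and 2 and DSS 1 and 2. In the whole myeloid class, Il22ra2 stood at 14.4 ± 18.1 CPM in control and 9.55 ± 9.97 CPM in DSS, with a log2 fold change of -0.49 (SE 1.15, edgeR adjusted p = 1.0).

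**Figure D2:**
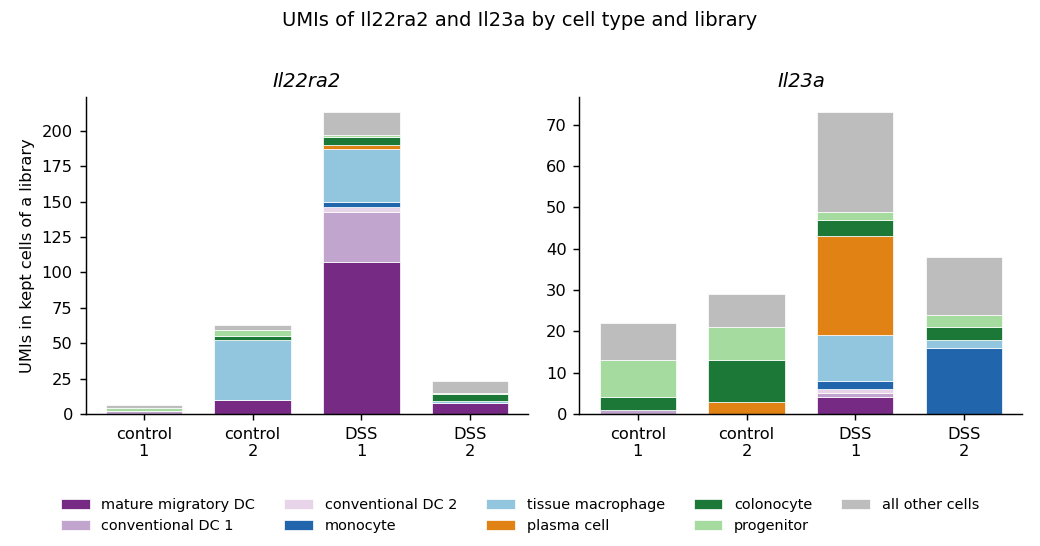
UMIs of Il22ra2 and Il23a in each library (y axis, number of UMIs), stacked by the cells that held them. Il22ra2 lay mainly in mature migratory dendritic cells in DSS 1, with 107 of 213 UMIs, and in 1 tissue macrophage in control 2, while Il23a was spread over myeloid, plasma and epithelial cells.

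Il22ra1 (chr4:135728172-135752140), the epithelial chain of the interleukin 22 receptor, was lower in the colonocytes of both DSS libraries than in those of both controls. Colonocytes, the absorptive surface cells, held 78.1% of its UMIs. They had 100, 244, 26 and 52 UMIs in control 1 and 2 and DSS 1 and 2, or 5.0, 5.4, 1.6 and 1.3 CPM. The groups did not overlap, at 5.16 ± 0.27 CPM in control and 1.49 ± 0.219 CPM in DSS (SD, n = 2).

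The log2 fold change of Il22ra1 in colonocytes was -1.90 (SE 0.38, unadjusted p = 0.00186), and its edgeR adjusted p of 0.285 did not pass. In that class edgeR called 0 genes, 1466 had an unadjusted p under 0.05, and DESeq2 called 249. DESeq2 gave Il22ra1 an adjusted p of 0.00619, edgeR without a filter on low counts 0.00299, and edgeR with the replicate block 0.0188. The direction held without each library in turn, from -2.01 to -1.78. Cells limited to 15% mitochondrial UMIs gave a control level of 3.33 CPM in place of 5.16.

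Colonocytes of the 2 groups were not the same mixture. Cluster 0, led by Cpn1, Abca12 and Aqp8, a water channel of surface colonocytes, made up 1199, 2937, 54 and 273 cells of control 1 and 2 and DSS 1 and 2. Cluster 1, led by Aqp4, Hao2 and Il18, made up 817, 880, 563 and 1678, and cluster 12, led by genes such as Ly6g and Duox2, 56, 634, 145 and 615.

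Il22ra1 differed between these clusters. Cluster 0 stood at 11.1, 6.80, 1.79 and 3.28 CPM in control 1 and 2 and DSS 1 and 2, and cluster 12 at 22.7, 7.5, 4.4 and 1.6 CPM. In both, each DSS library was below each control, on few UMIs. These were 77, 174, 1 and 5 in cluster 0 and 7, 41, 8 and 8 in cluster 12. Cluster 1 stood at 1.24, 1.99, 1.27 and 1.21 CPM, with overlap.

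Within the clusters, each fitted alone after the data had been seen, the log2 fold change of Il22ra1 was -1.70 in cluster 0 (SE 0.59, edgeR adjusted p = 0.56), -2.11 in cluster 12 (0.353) and -0.40 in cluster 1 (0.935). DSS 1 had 1 Il22ra1 UMI in cluster 0. Over all colonocytes at 1000 UMIs per cell, 0.633% of control cells (0.455 to 0.858) and 0.182% of DSS cells (0.0667 to 0.395) had an Il22ra1 UMI, and 0 of 2853 control and 0 of 5507 DSS fibroblasts did. The median depth of colonocytes was 6819 and 8383 UMIs in control and 20496 and 14619 in DSS, and the unthinned shares were 5.0% and 2.31%.

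**Figure D3:**
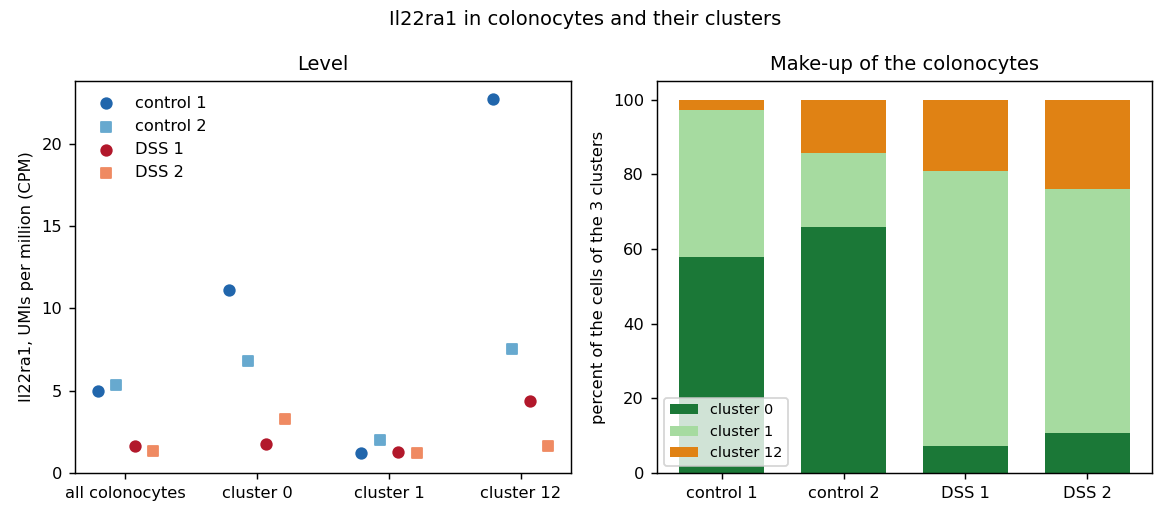
Left, Il22ra1 in CPM per library for all colonocytes and for clusters 0, 1 and 12. Right, percent of the cells of these clusters in each library. All colonocytes stood at 5.0 and 5.4 CPM in control and 1.6 and 1.3 CPM in DSS, and cluster 0 made up most control colonocytes and a minority of those in DSS.

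Other epithelial cells held little Il22ra1 and did not share this direction. Epithelial progenitors of the crypt stood at 0.54 ± 0.0324 CPM in control and 1.06 ± 0.293 CPM in DSS, with a log2 fold change of 0.94 (SE 0.67, edgeR adjusted p = 0.533). Mucus-secreting goblet cells stood at 0.60 ± 0.0592 and 1.16 ± 0.823 CPM and did not pass the filter. Myeloid cells, T cells and innate lymphoid cells, and fibroblasts were at most at 0.353 CPM in the mean of either group.

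Il17rc (chr6:113471427-113483140), the chain that pairs with Il17ra for interleukin 17A and 17F, was held mostly by colonocytes. It was not confined to epithelium and also lay in other classes such as glia and fibroblasts. Colonocytes held 68.2% of its UMIs, at 104, 150, 103 and 137 CPM in control 1 and 2 and DSS 1 and 2. The libraries numbered 2 were the higher ones, and control and DSS overlapped. The log2 fold change was -0.18 (SE 0.32, edgeR adjusted p = 0.883) and turned to 0.19 without control 2 and to 0.06 without DSS 1.

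In the crypt, Il17rc was higher in DSS. Epithelial progenitors stood at 25.4, 40.5, 58.1 and 61.7 CPM in control 1 and 2 and DSS 1 and 2, with means of 32.9 ± 10.7 and 59.9 ± 2.58. Goblet cells stood at 26.4, 45.9, 54.0 and 71.4 CPM. In both classes each DSS library was above each control. Markers of epithelial cells, 12 genes, also stood higher there: summed, they lay at 13585, 13679, 20948 and 24156 CPM in progenitors of control 1 and 2 and DSS 1 and 2. In progenitors 11 of the 12 were higher (median log2 fold change 1.04), in goblet cells 11 (median 1.34), none was called, and their part in the Il17rc values was not tested.

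The log2 fold change of Il17rc was 0.98 in progenitors (SE 0.22, unadjusted p = 0.0026, edgeR adjusted p = 0.0851) and 0.94 in goblet cells (SE 0.24, adjusted p = 0.201), so neither passed. In progenitors, 201 of 14265 genes were called, 1.41%. DESeq2 gave Il17rc in progenitors an adjusted p of 0.0191, and edgeR without control 2 gave 0.0113. In goblet cells the adjusted p was 0.0318 with the replicate block and 0.0185 without the filter.

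At 1000 UMIs per cell, 2.79% of control progenitors (2.20 to 3.49) and 6.11% of DSS progenitors (4.58 to 7.95) had an Il17rc UMI. The unthinned shares were 33.8% and 59.0%. In goblet cells the thinned shares were 3.09% (2.25 to 4.14) and 5.96% (4.27 to 8.06). Progenitor cluster 4, led by genes such as Ascl2 and Lgr5 of crypt stem cells, stood at 27.9, 41.1, 62.8 and 65.9 CPM of Il17rc in control 1 and 2 and DSS 1 and 2. Its log2 fold change was 1.01 (edgeR adjusted p = 0.0535).

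In control libraries the order of Il17rc levels began with colonocytes, at 127 ± 32.3 CPM. Glia (73.0 ± 50.8) and tuft cells (60.7 ± 45.3) followed. Goblet cells (36.1 ± 13.8), B cells (33.9 ± 18.4), progenitors (32.9 ± 10.7), smooth muscle (29.7 ± 10.3) and fibroblasts (28.1 ± 0.626) lay close together. Myeloid cells (19.4 ± 21.8), the lymphoid class (14.8 ± 11) and plasma cells (8.74 ± 4.21) were lowest. Apart from colonocytes against glia, neighbours in this order of 11 classes differed by less than the larger SD of the pair.

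Il17ra (chr6:120463247-120487559), the chain common to several interleukin 17 receptors, was highest in immune cells. In control libraries myeloid cells stood at 58.4 ± 31.2 CPM, B cells at 56.1 ± 20.2 and the lymphoid class at 54.9 ± 16.3, which did not differ beyond their spread. Fibroblasts stood at 26.4 ± 10.9 CPM, plasma cells at 15.1 ± 10.1 and colonocytes at 12.2 ± 3.57. Goblet cells (7.84 ± 3.12 CPM) and progenitors (7.78 ± 3.62) were alike within their spread.

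Il17ra was called in no class between DSS and control. Myeloid cells stood at 36.3, 80.5, 38.1 and 57.4 CPM in control 1 and 2 and DSS 1 and 2, and fibroblasts at 18.7, 34.1, 18.2 and 43.7. In both classes the libraries numbered 2 were above those numbered 1, whichever the group. The log2 fold change was -0.24 (SE 0.43) in myeloid cells, -0.19 (SE 0.32) in the lymphoid class and 0.34 (SE 0.47) in fibroblasts, with an edgeR adjusted p of 1.0 each. In fibroblasts it turned to -0.03 without control 1 and to -0.42 without DSS 2. Fibroblast cluster 3, led by Ptx3, Tnfaip6 and Has1, stood at 28.5, 54.7, 28.5 and 58.0 CPM.

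**Figure D4:**
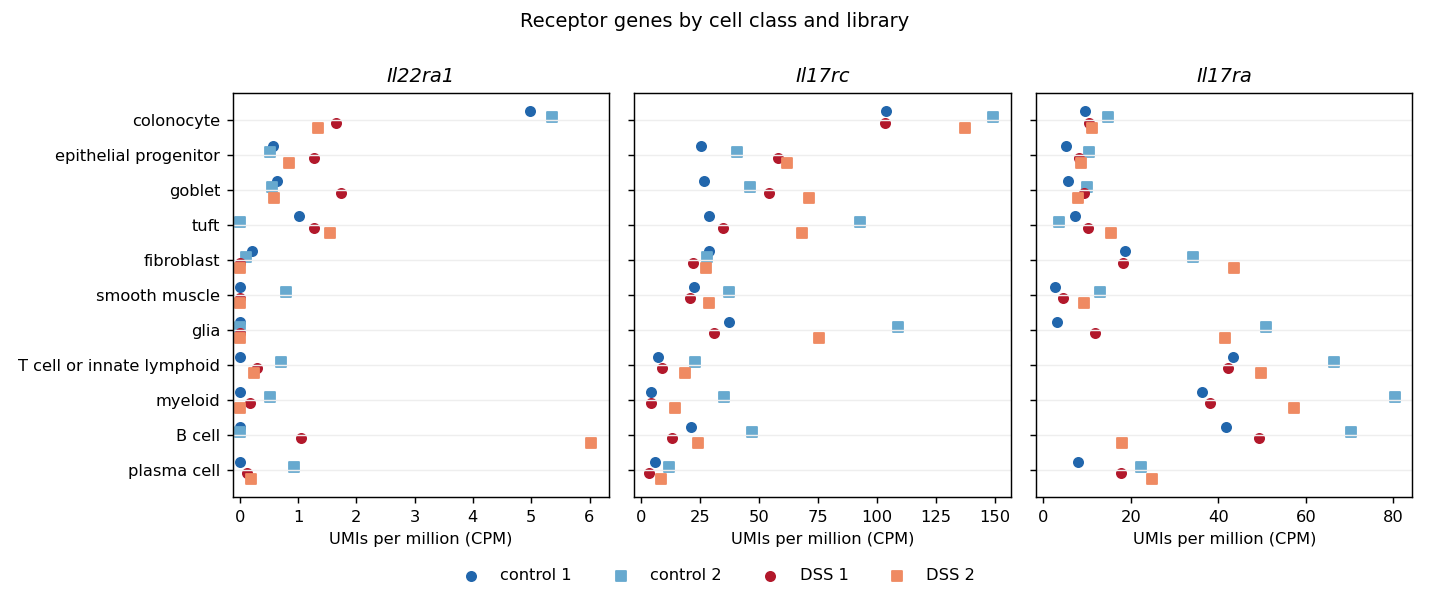
CPM of Il22ra1, Il17rc and Il17ra per library (points) in 11 cell classes. The mean control levels of Il22ra1 and Il17rc were highest in colonocytes and that of Il17ra in myeloid cells. The B cell point of Il22ra1 in DSS 2, at 6.03 CPM, is 1 UMI.

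Counted over 16 fits, the 9 genes gave 42 tests of DSS against control, and edgeR called 0 of them at an adjusted p of 0.05. Unadjusted, 10 of 42 had a p under 0.05, beside 6.49% of all 159677 gene tests. Of these 10, 5 came from the 9 tests in all kept cells together, where 10.2% of all genes had such a p. Subsets, classes and all kept cells share cells, so the 42 tests are not independent. DESeq2 called 5 of the 42. In all kept cells together edgeR called 0% of 21073 genes, beside 2139 at an unadjusted p under 0.05 and 445 called by DESeq2. With 2 libraries against 2, an exact permutation test cannot give a two-sided p below 0.333, so none was used.

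In all kept cells, a sum in which more cells of a type and more RNA per cell cannot be told apart, Il17a had a log2 fold change of 2.69 (SE 0.63, edgeR adjusted p = 0.395). Il17f stood at 2.48, Il22 at 2.93, Il23r at 2.07 and Il22ra1 at -1.84, with adjusted p-values of 0.419, 0.427, 0.441 and 0.43. DESeq2 gave adjusted p-values of 0.00257, 0.0319 and 0.0330 for Il17a, Il17f and Il22. Without DSS 2, the edgeR adjusted p of Il17a was 0.0229. For Il22 the log2 fold change was 3.77 without DSS 2 (edgeR adjusted p = 0.00122) and lowest, at 1.13, when DSS 1 was left out. The lymphoid class itself held 338 and 792 control cells and 1673 and 1371 DSS cells.

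Genes known to answer interleukin 22 were read in the progenitors, where 19 of the 24 listed genes were tested. Of these, 16 were higher in DSS, 4 rose and 1 fell, with a median log2 fold change of 0.70, beside -0.00377 over all genes tested, of which 49.7% were higher. Over all 14265 genes tested there, 201 were called, 1.41%. Reg3b, an antibacterial lectin, had 11.8, 8.57, 659 and 1800 CPM in control 1 and 2 and DSS 1 and 2. It rose by 6.96 on the log2 scale (SE 0.60, edgeR adjusted p = 0.00701).

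Reg3g encodes a related lectin, and reads of the pair may be hard to tell apart. It had 3.73, 8.86, 77.9 and 229 CPM in control 1 and 2 and DSS 1 and 2 (log2 fold change 4.76, edgeR adjusted p = 0.016). Il18, a cytokine of the interleukin 1 family made by epithelium, had 75.0, 36.2, 256 and 277 CPM (2.31, 0.044). Fut2, the enzyme that fucosylates the epithelial surface, had 28.6, 37.9, 71.0 and 78.2 CPM (1.27, 0.031). For all of these the DSS libraries lay above both controls. Cldn2, a claudin that forms pores between cells and is known to be induced by interleukin 22 in mouse, went the other way, with 131, 148, 28.7 and 41.7 CPM (-1.89, 0.016).

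A stretch of 154 bases that spans 178 to 25 bases before the RefSeq start of Reg3b, the called interleukin 22 target with the highest fold change, is printed from RefSeq on GRCm38.p6 because Stat3, the factor downstream of the interleukin 22 receptor, binds the palindrome TTCNNNGAA. Capitals mark a match to it, which began 129 bases before that start.
Reg3b, chr6:78370707-78370860, plus strand: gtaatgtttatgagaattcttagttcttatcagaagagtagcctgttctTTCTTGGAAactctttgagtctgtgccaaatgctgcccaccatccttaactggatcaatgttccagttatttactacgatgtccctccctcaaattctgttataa
Of 32851 promoters, 7.02% held this motif, on either strand, in the 250 bases before the start, and the 250 bases taken before Reg3g held none.

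Of 24 tested signalling partners of the axis, 1 rose in progenitors: Stat3 had 38.9, 48.8, 78.6 and 95 CPM in control 1 and 2 and DSS 1 and 2 (log2 fold change 1.09, edgeR adjusted p = 0.0459). The partners' median was 0.15. Of 25 known interleukin 17 targets 18 were tested, 17 were higher, 1 rose and 1 fell, with a median of 0.87. Beside both lists, 1.41% of all genes tested in progenitors were called. Il1rn, the antagonist of the interleukin 1 receptor, had 18.6, 29.8, 55.8 and 96.6 CPM (1.77, 0.0386). Nox1, an oxidase of the colonic epithelium, had 45.9, 71.8, 10.1 and 14.8 CPM (-2.10, 0.0163).

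Progenitors should lack immune cell markers, and these were also higher: all 13 that passed the filter, with a median log2 fold change of 2.16 and none called. Of the 12 epithelial markers 11 were higher, with a median of 1.04, and the part of either list in the targets' values was not tested. The summed immune markers were highest in DSS 1 and lower in DSS 2 (1617 CPM) than in control 2 (2259 CPM). Reg3b and Reg3g were higher in DSS 2 than in DSS 1. Reg3b also lay in colonocyte cluster 1, at 0.388, 36.7, 191 and 603 CPM in control 1 and 2 and DSS 1 and 2. The part of free RNA from other epithelial cells in the progenitor values was not tested. Cluster 4 alone, fitted after the data had been seen, called the same 8 genes, from Reg3b to Nox1. Stat3 missed the threshold without DSS 1 (adjusted p = 0.0707) or DSS 2 (0.26), at log2 fold changes of 1.17 and 0.96, as did Fut2 without DSS 2 (0.0818, at 1.22). With doublets kept Stat3, Il18 and Il1rn missed it (0.0743, 0.0572 and 0.0865). The dividing cluster 15 called Il18 (adjusted p = 0.0198) and Cldn2 (0.0237). The lists hold genes that other cytokines and microbes also induce.

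**Figure D5:**
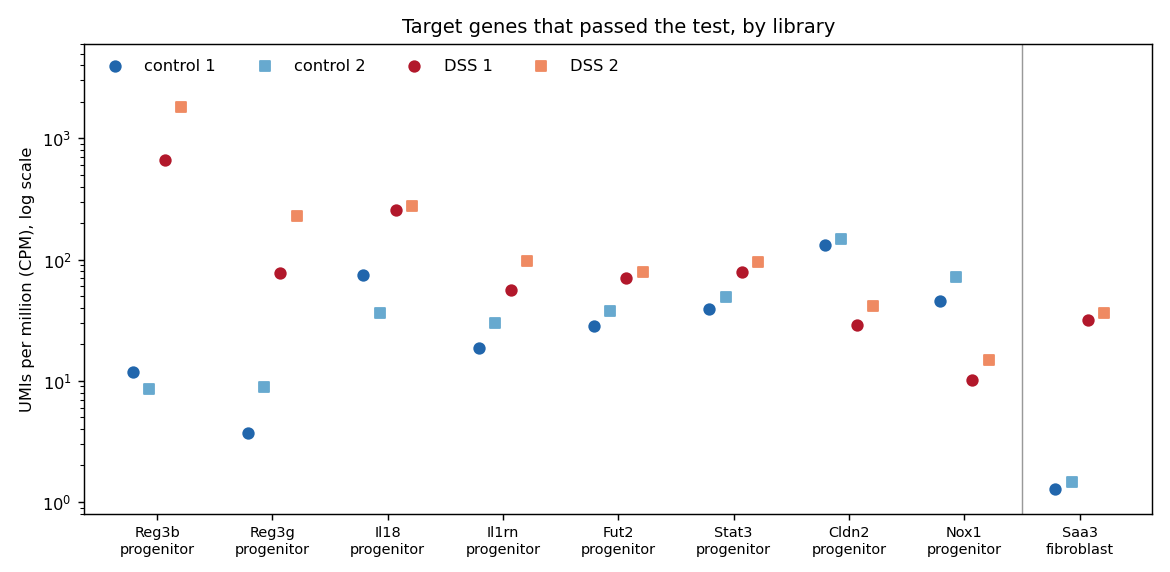
CPM per library (log axis) of the listed genes that edgeR called, 8 in epithelial progenitors and Saa3 in fibroblasts. Points of the DSS libraries lay above those of both controls for 7 genes and below them for Cldn2 and Nox1.

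In colonocytes and goblet cells none of these lists had a called gene, and edgeR called 0 genes in goblet cells, beside 1767 at an unadjusted p under 0.05 and 428 called by DESeq2. Of the 20 interleukin 22 targets tested in colonocytes 9 were higher, with a median log2 fold change of -0.05, and of 19 interleukin 17 targets 15 were higher, with a median of 0.83. In goblet cells 15 of 19 interleukin 22 targets were higher (median 0.72) and 15 of 17 interleukin 17 targets (median 1.24), beside a median of 2.55 for the 13 immune markers tested. Il18 in goblet cells had 27, 17, 127 and 179 CPM in control 1 and 2 and DSS 1 and 2, without overlap, and an edgeR adjusted p of 0.0949. Saa1, a serum amyloid that coats bacteria and lipids, was abundant in colonocytes and overlapped between the groups, at 5410.2 and 4181 CPM in control and 4433 and 4761 CPM in DSS.

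Among stromal receivers, fibroblasts had 1 called gene of the axis lists. Saa3, a serum amyloid listed as an interleukin 22 target, had 1.28, 1.46, 31.8 and 35.9 CPM in control 1 and 2 and DSS 1 and 2. It rose by 4.72 on the log2 scale (SE 0.33, edgeR adjusted p = 0.0343), and in fibroblasts 2 of 14394 genes, 0.0139%, were called. Without control 1 or control 2 its edgeR adjusted p was 0.421 or 0.379, at log2 fold changes of 4.64 and 4.80. In cluster 20, led by Nrg1, Bmp7 and Trpa1 and fitted alone after the data had been seen, Saa3 stood at 3.2, 3.0, 189 and 229 CPM (log2 fold change 6.15, adjusted p = 0.016). Fibroblasts had no Il22ra1 UMI in DSS.

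Of 17 interleukin 17 targets tested in fibroblasts 16 were higher in DSS and none was called, with a median log2 fold change of 1.58, beside 0.00332 over all genes. The 13 immune markers tested there were all higher, with a median of 1.45, and their summed level was 443, 4312, 10627 and 2292 CPM in control 1 and 2 and DSS 1 and 2. Cxcl1, a chemokine that draws neutrophils, stood at 113, 364, 129 and 1287 CPM, so DSS 1 was below control 2. Tnfaip6, an enzyme partner of hyaluronan, stood at 106, 766, 227 and 1908 CPM with the same overlap. Fibroblasts of the libraries were not the same mixture. Cluster 3, led by Ptx3, Tnfaip6 and Has1, held 165, 479, 219 and 2233 cells of control 1 and 2 and DSS 1 and 2. The whole class held 1236, 1757, 2133 and 3702 cells, and the part of this makeup in the target values was not tested. Cebpd, a transcription factor that interleukin 17 induces, stood at 711, 963, 1857 and 1116 CPM, and both DSS libraries were higher (edgeR adjusted p = 1.0).

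The genes whose pattern was most like that of each of the 9 were taken by Pearson's r of log2(CPM + 1) over 30 profiles of classes and subsets, pooled over libraries, which share library and depth. Il22 was most like Prr29 (r = 0.929) and Il23r most like Olfr60 (0.929). Il17a was most like Ccr4 (0.895), a chemokine receptor of T cells, and its list also held Tcrg-V6 (0.878), a variable segment of the γ chain. Il17f was most like Zfp985 (0.895) and Stab2 (0.885). Il22ra2 was most like Timd4 (0.945) and Il12b (0.931), the subunit that Il23a pairs with. Il17rc was most like Fam135a (0.963) and Erbb2 (0.948), Il22ra1 most like Gm11437 (0.890), Il17ra most like Susd3 (0.828) and Rel (0.824), and Il23a most like Fabp5 (0.734).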

How the data were processed

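Mouse middle colon was measured by droplet single-cell RNA sequencing in 2 control and 2 DSS libraries. The deposited values are whole-number UMI counts per gene and barcode, 12 files in all, made with Cell Ranger 6.1.1 on GRCm38, per the submitters' processing notes. The labels name 2 versions of the capture and library kits, and the version was not settled here. The sources used here do not give the authors' filters on barcodes.

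Control 1 and 2 and DSS 1 and 2 held 10966, 13014, 12778 and 13093 barcodes, beside a target of 5000 cells in the labels. Cells were kept with at least 500 UMIs, 250 genes and at most 25% mitochondrial UMIs, which left 44356, and predicted doublets (Scrublet, 0.8% per 1000 cells) were removed after clustering, 3.03% to 5.38% of a library. The kept 9039, 10244, 11574 and 11591 cells had median depths of 6106, 6298, 5809 and 4731 UMIs. Clusters (scanpy 1.11.5, leidenalg 0.10.2, 2000 variable genes, 40 components, 20 neighbours, resolution 1) left out 135 genes of the axis and its lists. A name needed 3 markers, each in 15% of the cells at 2-fold the rest. Of 36 clusters 4 stayed unnamed, as did 10 of 17 lymphoid and 6 of 18 myeloid sub-clusters.

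UMI counts of a class were added up within each library. Where every library had 20 cells or more, edgeR 4.0.16 (R 4.3.3; TMM, filterByExpr, group alone) ran its quasi-likelihood test, two-sided, with Benjamini-Hochberg adjustment over the class and a threshold of 0.05. Subsets with 5 cells and single clusters were added after the data had been seen. DESeq2 1.42.0, no filter, a replicate block, leaving out a library, other cell filters, doublets kept and resolution 2 were alternatives. The procedure was tested on simulated data. Shares of cells used thinning to 1000 UMIs and exact binomial (Clopper-Pearson) 95% intervals. All 55450 identifiers matched the GENCODE annotation of GRCm38.

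All 9 genes are reported. From the lists, a class names its called genes, up to 10 per list with at least 5 CPM, or its 3 most abundant where none was called. A listed marker is not reported here. The members and lists were chosen with earlier results of these data known.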

Additional observations from a re-analysis of the deposited data

How the results depend on the processing

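For the 9 genes, edgeR called 0, DESeq2 5, edgeR without a filter 7 and with the replicate block 3, and leaving out a library in turn gave 1 to 4. Of these, 5 of the 7 and 0 to 2 of those without a library lay among the 42 main tests, and the rest were of genes in classes where they had not passed the main filter. Of the listed genes, edgeR called 9, DESeq2 32, edgeR without a filter 114 and with the block 88, and leaving out a library gave 16 to 58. In progenitors 201 became 651 with DESeq2, 1302 without a filter, 429 with the block, 106 with doublets kept, 333 at resolution 2 and 254 to 881 without a library. In colonocytes 0 became 249, 557 and 822 with DESeq2, no filter and the block, and 0 to 359 without a library. In goblet cells 0 became 428, 1226 and 727, and 0 to 98. In fibroblasts 2 became 48, 268 and 447, and 0 to 95. In the lymphoid class 0 became 6, 32 and 53, and 7 to 15. In myeloid cells 0 became 17, 139 and 251, and 0 to 1. In all kept cells 0 became 445 with DESeq2, 631 without a filter, and 0 to 766 without a library. Leaving out DSS 2 also called Il17a in progenitors (log2 fold change 7.06), where 13 of its UMIs lay in 1 cell of DSS 1. The causes of the other changes were not tested.

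Directions turned in 7 of 316 alternatives of fold changes, a total that also holds alternative numbers of called members and called listed genes. The log2 fold change of Il17rc in colonocytes, -0.18, became 0.19 without control 2 and 0.06 without DSS 1 and reached -0.47 without DSS 2. Il22 in the lymphoid class, 1.09, became -0.16 without DSS 1 and reached 1.81 without DSS 2. Il17ra in fibroblasts, 0.34, became -0.03 without control 1, -0.42 without DSS 2 and -0.0608 in cluster 2 alone, and reached 0.83 without DSS 1. Il17a in the lymphoid class, 0.76, became -0.70 in γδ T cells alone. A further 263 kept direction and side of the threshold or, for numbers of called genes, stayed close to the main number. Another 17 passed the threshold and 15 no longer did. The 14 that moved were all numbers of called genes. Il22ra1 in control colonocytes was 3.33 CPM at 15% mitochondrial UMIs, and 73 of 74 alternative levels moved by less than 1 SD.

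Shares of cells with a UMI followed the depth of thinning. Il22 in DSS group 3 innate lymphoid cells was 39.0% at 500 UMIs. Il17rc in progenitors was 1.43% in control and 2.97% in DSS at 500 UMIs, and 33.8% and 59.0% unthinned. Il22ra1 in control colonocytes was 0.383% at 500 UMIs, 5.0% unthinned and 0.921% with doublets kept, and 2.31% in DSS unthinned.

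Libraries of equal number deviated from their group means together in 15 of 16 fits (r from -0.04 to 0.55). With 2 pairs and no statement in the labels that a number marks a shared animal or day, the replicate block was kept as an alternative.

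The limits are the 2 libraries per group, the few cells that carry the cytokine genes (108 cells with Il17a among 42448), the unequal makeup of libraries within a group, and free RNA, whose part was not tested. At this depth, Il23a in single classes and Il17f in the group 3 subset gave too few UMIs for a test.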
